A study of Mus musculus with 27 samples.

Results

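The comparison described is that of 16 min of renal ischemia, the shortest clamping time used, with sham operation, and it rests on 6 of the 27 kidneys that were sequenced. The 6 kidneys were chosen by their labels alone: 3 left kidneys labelled as clamped for 16 min and 3 labelled as sham, in which the clamping time was 0 min. All mice were of the C57BL/6 strain. In the study's model the right kidney was removed and the left one clamped, and 0 min is listed among the clamping times of that model. The titles of the 0 min kidneys read sham, and neither they nor the paper state outright that these mice lost the right kidney. If they did not, its removal and the clamping cannot be told apart. The mice lay on a heating platform at 37°C, and the left kidney was taken 24 h later for mRNA sequencing. The labels give neither age nor sex. The study set 9 clamping times side by side, from 0 to 30 min with 3 mice each, and the pair compared here asks what the mildest injury does to the kidney transcriptome. Replicate numbers only name the kidneys, each of which came from a different mouse.

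Ischemia-reperfusion injury strikes the proximal tubule above all, a segment with a high rate of oxidative metabolism. Surviving tubular cells lose transport and metabolic functions, switch on injury genes such as Havcr1 (kidney injury molecule 1) and Lcn2 (neutrophil gelatinase-associated lipocalin), and re-enter the cell cycle to replace lost neighbours. Tubular cells can also display antigen: interferon-gamma, acting in part through the class II transactivator CIITA, raises both classes of major histocompatibility complex (MHC) genes together with large families of interferon-induced GTPases that attack vacuoles of intracellular microbes.

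Values are FPKM, which scales the fragments of a gene by its transcript length and by all mapped fragments of the library, and fold changes are differences of quantile-normalized log2(FPKM + 1), which understate the change of weakly expressed genes. Genes were called differentially expressed (DEGs) where they were over 1 from the sham mean on the log2 scale, in either direction, at a limma p-value below 0.05 after Benjamini-Hochberg adjustment. The relative depth of the 6 libraries ran from 0.983 to 1.031, and 16498 to 16853 genes were above 0 FPKM in each. It was read, gene by gene, from the lowest FPKM level, each kidney being set against the median of the kidneys that shared that level. Absolute depth is unknown. Kap, an androgen-regulated transcript of the proximal tubule, took 8.68% to 9.26% of the summed FPKM in the sham kidneys and 3.47% to 5.7% in the 16 min kidneys, with Kap itself at 49644, 47741 and 47048 FPKM against 31299, 18844 and 24504 FPKM. Since Kap stands at the highest ranks of every library, quantile normalization leaves its log2 fold change at a log2 fold change of -0.14, against -0.98 without that step.

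Before the genes are described, 3 libraries that stood apart must be named. By list medians, replicate 3 of the 16 min group was near the sham mean in injury genes (0.34) and in genes of amino acid and fatty acid breakdown (-0.06 and -0.03). In MHC and mitotic genes it was not. Single genes were mixed: it was below the sham range in 19 of 39 amino acid and 13 of 30 fatty acid genes, and above it in 11 and 7. For such counts of 1 kidney outside the sham range, here and in the lists below, no share over all genes is given. They are descriptions only. Replicate 1 of the sham group was low in interferon-induced genes: its median difference from the sham mean over 20 interferon-induced GTPases was -2.28 on the log2 scale, against 1.38 and 0.8 in the other sham kidneys. The same sham kidney also held the most erythrocyte and T and NK cell marker signal of the sham kidneys, with summed levels of 645 and 7.96 FPKM, against 123 to 205 and 3.13 to 3.32 FPKM in the other sham kidneys. The part of these markers in the results was not tested. Replicate 3 of the sham group was the highest sham kidney in several injury genes, with Havcr1 at 2.81, 2.49 and 22.02 FPKM and Lcn2 at 11.5, 9.39 and 63.6 FPKM in sham replicates 1 to 3, and with an IL-6 and STAT3 list median of 0.4 above the sham mean on the log2 scale.

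Interferon-responsive promoters carry short recognition elements, which are printed here for genes that fell at 16 min so that the letters stand beside the values. In RefSeq's promoter windows for GRCm38.p6, the 250 bases before the start site were searched on both strands for the interferon-stimulated response element (ISRE, TTTC, any 2 bases and TTTC), the gamma-activated site (GAS, TTCNNNGAA) and the Y box of MHC promoters (CTGATTGG). An ISRE was present in 11 of the 12 interferon-induced GTPase genes with an entry (91.7%), in 10 of 21 interferon-stimulated antiviral genes (47.6%) and in 468 of all 14320 tested genes with an entry (3.27%). A GAS stood in 7 of the 12 GTPase genes (58.3%) and in 7.4% of all genes, and a Y box in 3 of 7 MHC class II genes (42.9%), 6 of 18 MHC class I and peptide loading genes (33.3%), 7 of 32 mitosis genes (21.9%), many of which were higher at 16 min, and 5.8% of all genes. The 2 GTPase genes below are shown because they hold an ISRE and a GAS side by side, and the 2 class II genes because they hold a Y box. Capitals mark the matches, and each run is the 150 bases before the start site, 5′ to 3′ on the gene's strand. Igtp is taken from chr11:58199406-58199555 on the plus strand, where the ISRE begins 34 and the GAS 45 bases before the start. Tgtp1 is taken from chr11:48992247-48992396 on the minus strand, where they begin 77 and 88 bases before it. The Y box begins 51 bases before the start in H2-Aa (chr17:34287824-34287973, minus strand) and 62 bases before it in H2-Eb1 (chr17:34305717-34305866, plus strand). A match describes the letters only and does not show that a factor was bound.
Igtp: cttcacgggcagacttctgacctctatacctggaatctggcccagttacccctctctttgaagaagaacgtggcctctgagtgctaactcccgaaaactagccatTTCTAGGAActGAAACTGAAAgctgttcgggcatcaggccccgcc
Tgtp1: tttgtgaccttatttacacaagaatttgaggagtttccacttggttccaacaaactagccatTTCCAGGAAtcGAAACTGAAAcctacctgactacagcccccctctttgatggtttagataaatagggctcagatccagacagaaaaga
H2-Aa: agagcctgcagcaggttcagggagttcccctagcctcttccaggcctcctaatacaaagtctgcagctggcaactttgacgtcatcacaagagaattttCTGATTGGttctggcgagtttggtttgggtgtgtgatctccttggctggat
H2-Eb1: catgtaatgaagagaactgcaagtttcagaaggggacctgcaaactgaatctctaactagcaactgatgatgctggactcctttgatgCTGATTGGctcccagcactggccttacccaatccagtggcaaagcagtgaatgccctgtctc

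At 16 min, called genes of antigen presentation were lower and those of mitosis, matrix and injury were higher than in sham kidneys. Of 18188 genes tested, 410 were DEGs (2.25%), of which 232 were higher (1.28%) and 178 lower (0.979%). The FPKM of the groups did not overlap in 5117 genes (28.1%), with all 3 clamped kidneys above the sham kidneys in 3745 (20.6%) and below them in 1372 (7.54%). This was the case for 211 of the 232 higher and 136 of the 178 lower DEGs. Counts without overlap in the lists below are to be read beside these shares of 20.6% above and 7.54% below. Called counts are to be read beside 1.28% higher and 0.979% lower. The split moved with the scaling: on TPM, the values rescaled to a fixed sum, 404 DEGs were higher and 170 lower, so that 70.4% were higher against 56.6% in the values used here. The count also rests on a spread shared by all 27 kidneys. A fit of the 6 kidneys alone called 8 genes, 3 higher (Gm40364, Aldh1a7 and Nkain1) and 5 lower (Cd74, H2-K1, Pigr, Ddc and Ptpru), although 4010 genes were under 0.05 before adjustment. Of the lists described below it called 1 MHC class I and 1 class II gene.

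**Figure D1:**
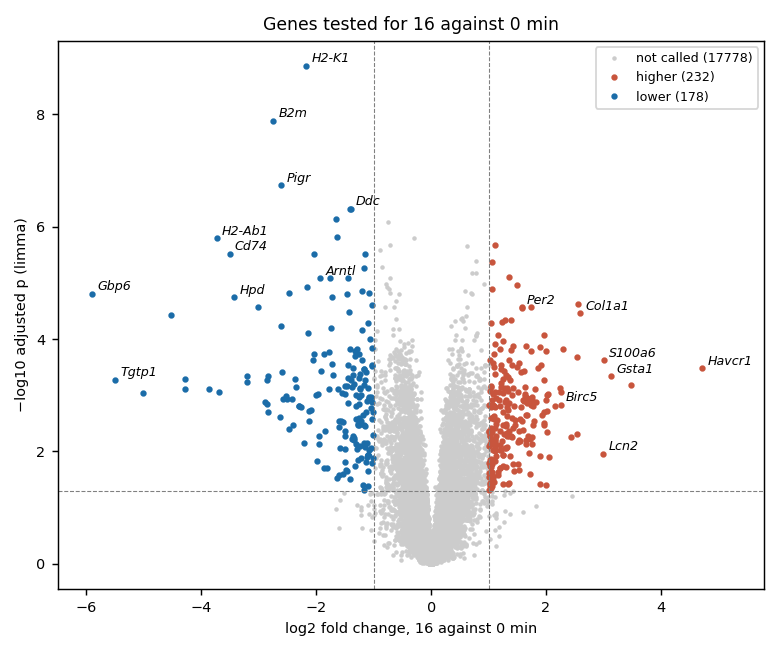
Each point is 1 of the 18188 tested genes, with the log2 fold change of 16 against 0 min (quantile-normalized log2(FPKM + 1)) on the x axis and −log10 of the limma adjusted p-value on the y axis. Dashed lines mark the thresholds; 232 genes are called higher and 178 lower, and H2-K1, B2m and Pigr stand highest among the lower genes.

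Of 9 tested MHC class II genes, whose products present peptides to CD4+ T cells, 7 were lower, and 8 were below the sham kidneys without overlap. The median log2 fold change over the list was -2.59, with medians of -2.64, -2.1 and -2.98 in replicates 1 to 3, beside a median of 0.00 over all genes. Cd74, the invariant chain that escorts class II molecules, stood at 674, 622 and 624 FPKM in the sham kidneys and at 47.9, 87.7 and 51.2 FPKM after 16 min. Every sham kidney was far above every clamped one (log2 fold change -3.51 ± 0.35 SE, limma adjusted p = 3.1e-06). H2-Ab1, the class II beta chain, fell from 249, 392 and 399.7 to 22.4, 45.9 and 17.3 FPKM (log2 fold change -3.74 ± 0.34 SE, limma adjusted p = 1.6e-06). H2-Aa, the alpha chain paired with it, fell from 112, 184 and 180.2 to 15, 24.3 and 16.5 FPKM (log2 fold change -3.02 ± 0.37 SE, limma adjusted p = 2.7e-05), and H2-Eb1 from 34.2, 87.9 and 78.5 to 6.8, 14.6 and 9.19 FPKM (log2 fold change -2.62 ± 0.34 SE, limma adjusted p = 5.8e-05). The last 2 are the Y box genes printed above. In this list sham replicate 1 was lower than the other sham kidneys for 8 of 9 genes, but it remained above all clamped kidneys for 8 of 9. Ctss, the cathepsin that trims the invariant chain, was at 9.18, 14.7 and 15.5 FPKM in the sham and 8.43, 11.04 and 5.07 FPKM in the clamped kidneys and was not called. Class II genes are expressed by dendritic cells, macrophages and B cells too. In a bulk kidney, fewer cells of a type and less RNA per cell cannot be told apart. The 7 dendritic cell markers summed to 3.27, 3.99 and 3.81 FPKM in the sham kidneys and to 3.27, 4.37 and 3.86 FPKM after 16 min, ranges that overlap, and none of them was called.

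Of 20 MHC class I and peptide loading genes 13 were lower and 9 did not overlap, with a median log2 fold change of -1.45. B2m, the invariable light chain of all class I molecules, stood at 1332, 2090.2 and 2127 FPKM in the sham kidneys and 276, 376 and 255 FPKM in the clamped ones (log2 fold change -2.74 ± 0.18 SE, limma adjusted p = 1.3e-08). H2-K1, a classical class I heavy chain, was at 384, 435 and 452 FPKM in the sham and 99.5, 114 and 93.2 FPKM in the clamped kidneys, and it had the smallest adjusted p-value of all genes (log2 fold change -2.17 ± 0.12 SE, limma adjusted p = 1.4e-09). For both, every sham kidney lay far above every clamped kidney, sham replicate 1 included. Psmb9 and Psmb8, the catalytic subunits that turn the proteasome into the immunoproteasome, and Tap1, which carries peptides to class I molecules, behaved otherwise. Psmb9 was at 4.75, 78.9 and 45.97 FPKM in the sham kidneys and 3.1, 4.32 and 1.93 FPKM after 16 min (log2 fold change -2.89 ± 0.55 SE, limma adjusted p = 0.0013). Tap1 stood at 6.33, 68.9 and 47.96 FPKM in the sham and 4.04, 6.75 and 2.64 FPKM in the clamped kidneys (log2 fold change -2.57 ± 0.48 SE, limma adjusted p = 0.0012), with sham replicate 1 inside the range of the clamped kidneys. In Psmb8 the corresponding values were 12.2, 115 and 83.7 FPKM in the sham and 6.97, 7.78 and 4.67 FPKM in the clamped kidneys (log2 fold change -2.84 ± 0.47 SE, limma adjusted p = 4.5e-04). In Psmb8, Psmb9 and Tap1 sham replicate 1 sat closer to the clamped kidneys than to the other sham kidneys. The chaperones Calr and Pdia3, which serve all secreted proteins, were not called, at log2 fold changes of 0.19 and 0.14, and none of 23 constitutive proteasome subunits was called in either direction. Heavy chain genes of the H2 region are near copies of one another, so the authors' assignment of reads among them is uncertain.

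Of 21 listed interferon-induced GTPases 20 were tested, 18 were lower and 14 did not overlap, and the list median was -2.73. The medians of the clamped kidneys were -2.77, -2.41 and -2.83, and that of sham replicate 1 stood beside them. Gbp6, a guanylate-binding protein, was at 17.7, 466 and 291 FPKM in the sham kidneys and 1.52, 2.32 and 0.88 FPKM after 16 min (log2 fold change -5.9 ± 0.68 SE, limma adjusted p = 1.6e-05). Igtp, an immunity-related GTPase whose promoter is printed above, was at 17.4, 503 and 363 FPKM in the sham and 7.73, 10.6 and 5.07 FPKM in the clamped kidneys (log2 fold change -4.28 ± 0.72 SE, limma adjusted p = 5.2e-04). For Tgtp1, the second printed gene, the values were 9.3, 613 and 535 FPKM in the sham and 2.33, 5.93 and 1.16 FPKM in the clamped kidneys (log2 fold change -5.5 ± 0.93 SE, limma adjusted p = 5.3e-04). In each the clamped kidneys all lay below the sham kidneys, but the sham kidneys themselves were split, with replicate 1 far under the other sham kidneys. Iigp1 and Gbp10 showed the same split, at log2 fold changes of -5.01 and -4.53. Gbp2b was hardly expressed, at 0.05, 0.20 and 0.11 FPKM in the sham and 0, 0 and 0.04 FPKM in the clamped kidneys, and was not called. Over the list, sham replicate 1 was below both other sham kidneys in 20 of 20 genes and above all clamped kidneys in 14. Tgtp1 and Tgtp2, and several Gbp genes, share much of their sequence, so their separate values are uncertain.

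Interferon-stimulated antiviral genes did not separate the groups in the same way. Of 28 members 18 were lower (median -1.42), but only 4 did not overlap, and sham replicate 1 lay below the other sham kidneys in 28 of 28 genes and above all clamped kidneys in 4. Bst2, a tether of budding virions, was at 27.2, 173 and 179.7 FPKM in the sham kidneys and 24.6, 29.5 and 13.2 FPKM after 16 min (log2 fold change -2.13 ± 0.43 SE, limma adjusted p = 0.0019). Ifit1, which binds foreign RNA caps, was at 1.92, 27.03 and 33.1 FPKM in the sham and 3.38, 3.78 and 1.69 FPKM in the clamped kidneys (log2 fold change -1.98 ± 0.54 SE, limma adjusted p = 0.015). In both, sham replicates 2 and 3 stood far above all other kidneys. With sham replicate 1 left out 27 of the 28 were called lower, without sham replicate 2 the number was 8, and without sham replicate 3 it was 9. Ifit1 was then no longer called (limma adjusted p = 0.10 and 0.090). Among 18 regulators of the response 8 were lower, and 4 without sham replicate 2. Ciita was at 1.04, 17.3 and 10.8 FPKM in the sham and 0.44, 1.09 and 0.22 FPKM in the clamped kidneys (log2 fold change -2.42 ± 0.46 SE, limma adjusted p = 0.0012), with overlap between the groups. Irf7, which amplifies type I interferon, did not overlap, at 18.7, 143 and 152 FPKM in the sham and 9.64, 12.97 and 7.23 FPKM in the clamped kidneys (log2 fold change -2.86 ± 0.48 SE, limma adjusted p = 5.3e-04). Irf3, which acts at the start of type I interferon induction, was not called, at a log2 fold change of 0.27. All 4 genes of the CXCR3 ligand list were uncalled, and Cxcl10 stood at 3.7, 79.6 and 48.7 FPKM against 9.04, 28.4 and 5.1 FPKM.

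Of 40 tested genes of mitosis 33 were higher, 40 were above the sham kidneys without overlap, and none was lower, against 1.28% of all genes higher and 20.6% above without overlap. The list median was 1.4, with medians of 0.92, 1.94 and 1.34 in replicates 1 to 3. Mki67, the proliferation antigen Ki-67, was at 1.08, 0.39 and 0.62 FPKM in the sham kidneys and 3.64, 10.4 and 5.98 FPKM after 16 min (log2 fold change 2.0 ± 0.38 SE, limma adjusted p = 0.0012). Birc5, the survivin subunit of the chromosomal passenger complex, rose from 3.19, 0.79 and 2.7 to 8.79, 24.8 and 14.3 FPKM (log2 fold change 2.25 ± 0.44 SE, limma adjusted p = 0.0015). Top2a, the topoisomerase that untangles sister chromatids, went from 1.14, 0.67 and 1.3 to 4.98, 13.1 and 7.71 FPKM (log2 fold change 2.03 ± 0.37 SE, limma adjusted p = 9.7e-04). In all of these replicate 2 was highest and replicate 1 lowest of the clamped kidneys. The order held across the list: replicate 2 was highest in 40 of 40 genes and replicate 1 lowest in 39, and without replicate 2 the count of higher genes was 22. Cdca3, which promotes entry into mitosis, and Ccna2, cyclin A2, had log2 fold changes of 2.24 and 2.02, and Ube2c, the ubiquitin-conjugating enzyme of the anaphase-promoting complex, had 2.53. Spc25 and Smc4, the most abundant uncalled members, were at log2 fold changes of 0.99 and 0.69.

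Fewer of the DNA replication genes passed, though their direction was shared. Of 40 members 8 were higher, 29 were above without overlap (20.6% of all genes were), none was lower, and the list median was 0.69. Rrm2, which makes deoxynucleotides, was at 4.28, 2.03 and 3.66 FPKM in the sham kidneys and 14.1, 33.8 and 18.8 FPKM after 16 min (log2 fold change 2.26 ± 0.41 SE, limma adjusted p = 8.7e-04). Tk1, thymidine kinase, was at 8.42, 3.63 and 8.45 FPKM in the sham and 18.8, 39.9 and 24.9 FPKM in the clamped kidneys (log2 fold change 1.79 ± 0.38 SE, limma adjusted p = 0.0028). In both, replicate 2 stood above the other clamped kidneys. Pcna, the sliding clamp of DNA polymerase, was at 34.8, 30.2 and 39.4 FPKM in the sham and 48.2, 86.7 and 52.1 FPKM in the clamped kidneys and was not called (adjusted p = 0.051, limma). The list medians in replicates 1 to 3 were 0.54, 1.24 and 0.34. Without 16 min replicate 2 the count fell to 4, without 16 min replicate 3 it was 14, and without sham replicate 1 or 2 it was 5. Of 18 cyclins and inhibitors of the G1 phase, Ccne1 (cyclin E1) and E2f1 were higher, at log2 fold changes of 1.25 and 1.08, and Cdk4 was not called, at a log2 fold change of 0.38. Without 16 min replicate 2 neither Ccne1 nor E2f1 was called (limma adjusted p = 0.092 and 0.079), and E2f1 was not called without sham replicate 2 either (0.058).

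Of 27 collagen and matrix genes 10 were higher, 17 were not called, none was lower, and the median was 0.73. Col1a1, the main chain of type I collagen, was at 5.08, 2.57 and 3.79 FPKM in the sham kidneys and 42.7, 35.7 and 17.3 FPKM after 16 min (log2 fold change 2.6 ± 0.32 SE, limma adjusted p = 3.5e-05). Col3a1, type III collagen, was at 5.87, 3.69 and 4.77 FPKM in the sham and 42.8, 43.5 and 22.9 FPKM in the clamped kidneys (log2 fold change 2.55 ± 0.31 SE, limma adjusted p = 2.4e-05). Every clamped kidney was well above the highest sham kidney in both, replicate 3 included. Col15a1, of the basement membrane zone, rose by 1.65, and the abundant Col4a1 and Bgn were not called, at log2 fold changes of 0.68 and 0.47. Of 21 cytoskeleton and tubulin genes 11 were higher and 20 were above without overlap, against 20.6% of all genes (list median 1.04). Tubb5, a beta tubulin, stood at 28.8, 24.1 and 32.2 FPKM in the sham and 86.5, 137 and 52.2 FPKM in the clamped kidneys (log2 fold change 1.49 ± 0.24 SE, limma adjusted p = 3.2e-04). Tmsb10, an actin monomer binder, went from 81.3, 69.2 and 81.5 to 307, 402 and 122 FPKM (log2 fold change 1.62 ± 0.26 SE, limma adjusted p = 3.6e-04). Replicate 3 was the lowest of the clamped kidneys in 20 of 21 genes of this list, and the count was 6 without 16 min replicate 2. Actb was uncalled, at a log2 fold change of 0.42. The list of 8 fibroblast and pericyte markers includes Col1a1 and Col3a1, so it is not a measure separate from the collagens. Of the 8, 3 were higher (Col1a1, Col3a1 and Acta2) and 5 were not called. Their summed level, the collagens included, ran from 47.1 to 53.1 FPKM in the sham kidneys and from 107.7 to 136.6 FPKM in the clamped ones. The part of these cells in the collagen result was not tested. Dcn and Pdgfrb, abundant in fibroblasts and pericytes, had log2 fold changes of -0.68 and 0.42 and were not called.

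Sterol genes were a group in which replicate 3 moved most. Of 26 cholesterol and fatty acid synthesis genes 4 were higher, 18 were above without overlap (20.6% of all genes were) and none was lower. The list median was 0.6, with medians of 0.62, 0.34 and 0.93 in replicates 1 to 3. Fdps, which makes farnesyl diphosphate, was at 18, 15.4 and 19.6 FPKM in the sham kidneys and 51.9, 42.1 and 59.5 FPKM after 16 min (log2 fold change 1.39 ± 0.20 SE, limma adjusted p = 1.6e-04). The groups did not overlap. Replicate 3 was highest in 22 of 26 list members and replicate 2 lowest in 23. Msmo1 and Dhcr7, later steps of the pathway, had log2 fold changes of 1.21 and 1.02. The count was 9 without 16 min replicate 2, 2 without replicate 1 and 1 without replicate 3, the log2 fold changes of Msmo1 and Dhcr7 then being 0.97 and 0.94. Hmgcs1, the entry enzyme and the most abundant uncalled member, was at 178, 154 and 133 FPKM in the sham and 240.4, 176 and 343 FPKM in the clamped kidneys.

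Of 26 NRF2 and glutathione genes 4 were higher. Gsta1, a glutathione transferase, was at 1.25, 0.83 and 1.44 FPKM in the sham kidneys and 12.1, 58.7 and 10.1 FPKM after 16 min (log2 fold change 3.12 ± 0.52 SE, limma adjusted p = 4.6e-04). Its near copy Gm3776 was listed at 0 in all 3 sham kidneys and at 7.49, 31.2 and 4.15 FPKM in the clamped ones, and how reads were divided between the pair is uncertain. Its fitted fold change depends on the pseudocount. Both genes were above the sham range in every clamped kidney, replicate 2 highest. Gstp1, another transferase, was at 261, 266 and 268 FPKM in the sham and 631, 644 and 395 FPKM in the clamped kidneys (log2 fold change 1.06 ± 0.12 SE, limma adjusted p = 1.3e-05), and Hmox1, heme oxygenase 1, at 18.8, 29.98 and 36.1 FPKM in the sham and 76.2, 76.5 and 36.5 FPKM in the clamped kidneys (log2 fold change 1.03 ± 0.29 SE, limma adjusted p = 0.018), where replicate 3 lay only just above the highest sham kidney. Without 16 min replicate 1 or 2 neither was called: Gstp1 was at 0.97 in both cases, and the limma adjusted p of Hmox1 was 0.088 and 0.10. Hmox1 was not called without sham replicate 1 either (0.10). Gpx3, a plasma glutathione peroxidase made by the kidney, was at 25808, 27812 and 27234 FPKM in the sham and 18381, 22666 and 23743 FPKM in the clamped kidneys, all clamped kidneys below. Its log2 fold change was 0.14 after quantile normalization, at the highest ranks as for Kap. Of 20 heat shock and endoplasmic reticulum stress genes none was called, and of 21 p53 targets Gdf15 and Plk3 were higher, at log2 fold changes of 1.26 and 1.13, neither of them without sham replicate 1 (limma adjusted p = 0.080 and 0.060). Gdf15 was also not called without sham replicate 2 or 16 min replicate 2 (0.082 and 0.12) or with 1 variance weight per group (0.062), and Plk3 not without 16 min replicate 3, where its log2 fold change was 0.89.

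Tubular injury markers differed widely among the 3 clamped kidneys. Of 25 members 16 were higher, none was lower and 12 were above without overlap, with a list median of 1.18. The medians in replicates 1 to 3 were 1.37, 2.18 and 0.34, and replicate 3 was the lowest clamped kidney in 25 of 25 genes. Replicates 1, 2 and 3 were above the sham range in 24, 25 and 12 of the genes, and replicate 3 was below it in 4. With the pseudocount of 1 FPKM Havcr1 had the largest fitted increase of all genes, from 2.81, 2.49 and 22.02 FPKM in the sham kidneys to 332, 574 and 35.1 FPKM after 16 min (log2 fold change 4.71 ± 0.74 SE, limma adjusted p = 3.3e-04). Replicates 1 and 2 were far above all sham kidneys, but replicate 3 passed the highest of them, sham replicate 3, by little. With a pseudocount of 0.1 FPKM its log2 fold change was 4.96, under the 6.65 of Gm3776, which is listed at 0 in the sham kidneys. Lcn2 was at 11.5, 9.39 and 63.6 FPKM in the sham and 388, 410.3 and 31.4 FPKM in the clamped kidneys (log2 fold change 2.99 ± 0.78 SE, limma adjusted p = 0.011), with replicate 3 inside the sham range, between sham replicate 3 and the other sham kidneys. S100a6, a calcium-binding protein of regenerating tubules, was at 10.9, 8.27 and 24.7 FPKM in the sham and 179, 227 and 41.7 FPKM in the clamped kidneys (log2 fold change 3.0 ± 0.46 SE, limma adjusted p = 2.4e-04), and Krt20, a keratin of stressed epithelium, at 0.23, 0.32 and 1.11 FPKM in the sham and 5.07, 15.1 and 1.97 FPKM in the clamped kidneys (log2 fold change 2.05 ± 0.55 SE, limma adjusted p = 0.013). In each of these 4 genes the order of the clamped kidneys kept replicate 3 lowest. S100a11 and Cryab, the abundant uncalled members, were at log2 fold changes of 0.94 and 0.42. Leaving out 16 min replicate 2 gave 6 called members, leaving out replicate 3 gave 19, and leaving out sham replicate 2 gave 10. Lcn2 was not called without sham replicate 2, 16 min replicate 1 or 16 min replicate 2 (limma adjusted p = 0.068, 0.067 and 0.080), and Krt20 not without sham replicate 2 or 16 min replicate 2 (0.052 and 0.10).

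**Figure D2:**
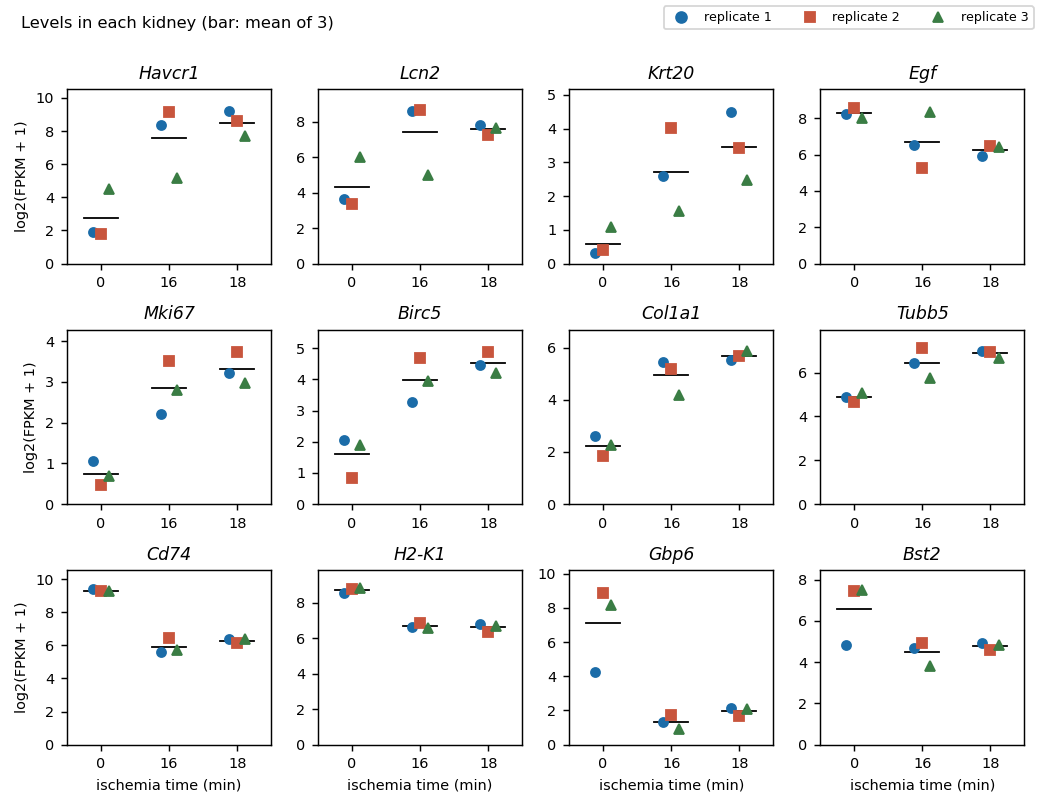
Points are single kidneys at 0, 16 and 18 min of ischemia (x axis), by replicate, on log2(FPKM + 1) before normalization (y axis), and bars are means of 3. At 16 min replicate 3 lies near the sham kidneys for Lcn2 and Egf but with the other clamped kidneys for Cd74, H2-K1, Gbp6 and Mki67, and sham replicate 1 lies low for Gbp6 and Bst2.

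Spp1, osteopontin, stood at 776, 1132 and 1705 FPKM in the sham kidneys and 7903, 10483 and 1192 FPKM after 16 min (log2 fold change 1.9 ± 0.50 SE, limma adjusted p = 0.012). Timp1, an inhibitor of matrix proteases, was at 0.60, 0.22 and 3.67 FPKM in the sham and 17.1, 28.1 and 2.23 FPKM in the clamped kidneys (log2 fold change 2.43 ± 0.57 SE, limma adjusted p = 0.0055). Replicate 3 lay within the sham range for both genes, below sham replicate 3 but above the other sham kidneys. With 16 min replicate 2 left out neither was called (limma adjusted p = 0.092 and 0.0502), and Spp1 was not called without sham replicate 1 or 16 min replicate 1 (0.055 and 0.080). Of 14 chemokines and adhesion genes that draw neutrophils and monocytes Cxcl1, Ccl2 and Ccl7 were higher, 7 of the 14 were without 16 min replicate 3, and the list medians of the 3 kidneys were 0.69, 0.98 and 0.03. Cxcl1, a ligand of the neutrophil receptor CXCR2, was at 0.83, 1.48 and 3.6 FPKM in the sham and 16.3, 41.2 and 6.06 FPKM in the clamped kidneys (log2 fold change 2.54 ± 0.58 SE, limma adjusted p = 0.0050), and Ccl2, the main chemokine of monocytes, at 0.66, 0.80 and 1.68 FPKM in the sham and 7.71, 13.3 and 2.15 FPKM in the clamped kidneys (log2 fold change 1.74 ± 0.33 SE, limma adjusted p = 0.0012). Both were above the sham range in all 3 clamped kidneys, though replicate 3 was the lowest. None of 18 IL-6 and STAT3 genes was called. Their medians were 0.52, 0.8 and -0.25, and replicate 3 was below the sham range in 7 of the 18 and above it in none. Socs3, the feedback inhibitor of the pathway, was at 1.38, 1.18 and 4.16 FPKM in the sham and 8.04, 16.2 and 1.12 FPKM in the clamped kidneys, and Fgg, a fibrinogen chain induced through it, at 14.3, 38.98 and 80.05 FPKM in the sham and 79.05, 55.8 and 8.7 FPKM in the clamped kidneys. For Fgg replicate 3 was below every sham kidney. Il6 itself was between 0 and 0.72 FPKM in the 6 kidneys. Among 21 AP-1 and immediate early genes Egr1 and Junb were higher, at log2 fold changes of 1.97 and 1.25 (Junb not without 16 min replicate 2, limma adjusted p = 0.098). Without 16 min replicate 3, 5 of the 21 were higher. In all, 15 were above without overlap, against 20.6% of all genes, with medians of 0.45, 1.01 and 0.31 in replicates 1 to 3. Replicate 3 was the lowest clamped kidney in 11 of these 21 genes and above replicate 1 in 10.

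The growth factor Egf, made in the thick ascending limb and distal tubule and lost from injured kidneys, showed the split in the other direction. It was at 301, 375 and 259 FPKM in the sham kidneys and 90.8, 36.98 and 329.6 FPKM after 16 min. Replicates 1 and 2 were far below all sham kidneys and replicate 3 within their range, so that the fold change of -1.58 ± 0.60 (SE) was not called (limma adjusted p = 0.072). Slc12a1, the salt transporter of the thick ascending limb, was at 400.1, 324 and 303 FPKM in the sham and 236, 77.9 and 396 FPKM in the clamped kidneys, again with replicate 3 in the sham range. Slc12a1 was named after its values were seen. Umod and Slc12a3, other markers of the loop and distal tubule, had log2 fold changes of 0.15 and -0.17. Over the 6 markers of the list, Egf and Slc12a1 included, replicates 1, 2 and 3 were below the sham range in 4, 6 and 1. They were above it in 1, 0 and 3. None of the 6 markers of that list was called. They summed to 2376, 2508 and 2161 FPKM in the sham and 2929, 1473 and 2794 FPKM in the clamped kidneys. Their medians in clamped replicates 1 to 3 were -0.49, -0.88 and 0.19.

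By the median SD and by the number of genes far apart, the 3 clamped kidneys differed from one another more than those of any other clamping time. Replicates 2 and 3 were more than 1 apart on the log2 scale in 528 genes (2.9%), the most of the 27 replicate pairs of the series. Replicates 1 and 3 were that far apart in 288 genes (1.58%) and replicates 1 and 2 in 195 (1.07%). The sham pairs gave 53 to 192 genes and the 30 min pairs, the next widest, up to 335. The median SD over genes was 0.13 at 16 min, 0.083 in the sham kidneys and 0.072 to 0.115 at the other times. A variance weight fitted to each group gave 16 min the lowest, 0.51, beside 0.583 at 30 min and 0.982 to 1.446 elsewhere. With these weights 363 DEGs were called.

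**Figure D3:**
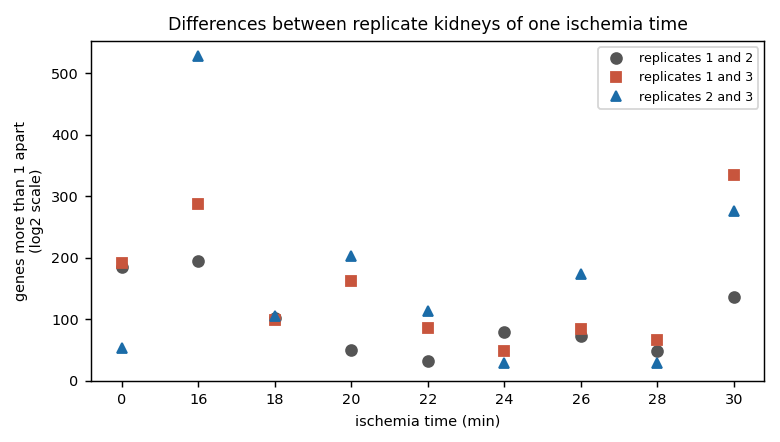
For each ischemia time (x axis, min) the 3 points are the pairs of replicate kidneys, and the y axis is the number of the 18188 genes that differ by more than 1 on the quantile-normalized log2 scale. The pair of replicates 2 and 3 at 16 min is the highest point, at 528 genes.

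The spread had a direction for some genes and not for others. A range over 1 among the clamped kidneys was found in 716 genes, 361 of them highest in replicate 2 and 373 lowest in replicate 3. In 304 both were the case, and in 157 the order of these kidneys was the reverse. Of the 716 genes 138 were higher DEGs and 47 lower DEGs. Replicate 3 lay within the sham range, while the other clamped kidneys were more than 1 beyond it, for 28 genes above the range and 2 below it, and there was no such gene for replicates 1 or 2. Besides Lcn2, Spp1 and Timp1, the 28 held Krt18 and Krt5 (keratins), Cldn4 (a tight junction protein), Plaur (the urokinase receptor) and Arg2 (an arginase), and the 2 were Egf and Abca8a. Sham replicate 3 was the highest sham kidney in 24 of the 28 and sham replicate 1 in 4, so that the upper end of the sham range rests mostly on 1 kidney. In 24 of the 28 and in both of the 2, all 3 kidneys clamped for 18 min lay beyond the sham range on the same side as replicates 1 and 2. These 30 genes were picked by their values, so the counts are a description. The DEGs were called from these same kidneys, so the counts that follow are a description as well. Replicate 3 was above the sham range in 208 of the 232 higher DEGs, and replicates 1 and 2 in 231 and 232. The medians over these genes were 0.92, 1.25 and 1.84 in replicates 3, 1 and 2. In the 178 lower DEGs replicate 3 was below the sham range in 172, against 162 and 150, with medians of -1.4, -1.48 and -1.57 in replicates 3, 1 and 2.

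**Figure D4:**
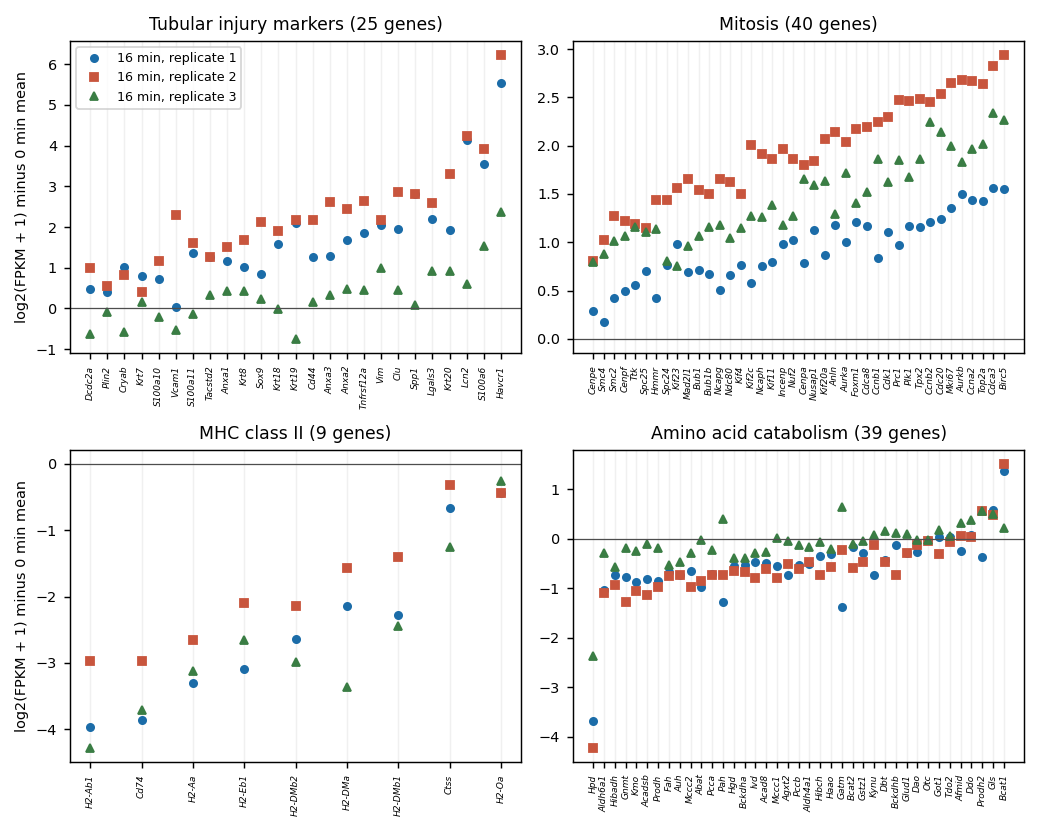
Points give, for each gene (x axis) of 4 lists, the log2(FPKM + 1) of each 16 min kidney minus the mean of the 3 sham kidneys (y axis), genes being ordered by fold change. Replicate 3 is lowest in 25 of 25 injury markers, lies between the others in most mitosis genes and is mixed with them in MHC class II, and it stays nearest 0 in most amino acid catabolism genes.

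Among the 20 genes of widest range with a mean of at least 5 FPKM, Sprr1a, a cornified envelope protein, was at 6.53, 5.01 and 24.9 FPKM in the sham kidneys and 53.1, 156 and 6.43 FPKM after 16 min, a range of 4.36 among the clamped kidneys. Havcr1 and Serpina10, a serpin that inhibits a clotting factor, followed, with ranges of 3.86 and 3.70. Serpina10 itself stood at 1.17, 3.16 and 4.68 FPKM in the sham and 32.4, 39.7 and 2.05 FPKM in the clamped kidneys, and its call was lost without replicate 1 or 2 of either group (limma adjusted p = 0.085 to 0.24). Nccrp1 was ordered the other way, at 181, 67.5 and 82.9 FPKM in the sham and 44.5, 8.55 and 90.2 FPKM in the clamped kidneys, and was not called. Across all 18188 genes the difference between replicates 2 and 3 had a Pearson correlation of 0.37 (Spearman 0.28) with the difference between 30 and 18 min of ischemia, and over the 528 genes named above the correlation was 0.63, with 420 of 528 in the same direction. These differences share no kidney. The 528 genes were picked by the size of the difference between replicates 2 and 3, so their values are no separate support. No same-direction share over all genes is given beside the 420. The correlations run over genes, which are not independent replicates, and are given as a description.

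Few metabolic genes of the proximal tubule passed the test. Of 39 amino acid catabolism genes 1 was lower and 1 higher, with medians of -0.53, -0.63 and -0.06 in replicates 1 to 3, and replicate 3 was the highest clamped kidney in 36. More genes shifted without being called: all clamped kidneys lay below the sham kidneys in 19 of these 39 and in 13 of 30 fatty acid oxidation genes. They lay above in 2 and 0, beside 7.54% below and 20.6% above over all genes. Hpd, which degrades tyrosine through 4-hydroxyphenylpyruvate, fell in every kidney, from 69.4, 59.99 and 77.4 to 4.68, 3.07 and 12.5 FPKM (log2 fold change -3.43 ± 0.40 SE, limma adjusted p = 1.8e-05). Bcat1, the cytosolic branched-chain transaminase, was called higher, at a log2 fold change of 1.03, but it stayed so only when 16 min replicate 3 was the kidney left out (limma adjusted p = 0.054 to 0.20 without any other). Of 30 fatty acid oxidation genes only Ehhadh, the peroxisomal bifunctional enzyme, was lower, at 321, 362 and 336 FPKM in the sham kidneys and 157, 105 and 222 FPKM after 16 min (log2 fold change -1.23 ± 0.26 SE, limma adjusted p = 0.0029), but it was at -0.96 and not called without 16 min replicate 2. Acsm2, a medium-chain acyl-CoA synthetase, was at 622, 580.1 and 523 FPKM in the sham and 302, 295 and 483 FPKM in the clamped kidneys and did not pass the fold threshold. Replicate 3 was highest of the clamped kidneys in 29 of the 30 genes, 19 of 20 citric acid cycle genes and 24 of 29 oxidative phosphorylation subunits. The citric acid cycle list had medians of -0.14, -0.27 and 0.16 and the oxidative phosphorylation list of -0.03, -0.19 and 0.17, and no gene of either was called. In the citric acid cycle list replicate 3 was above the sham range in 15 of 20 genes and replicates 1 and 2 below it in 13 and 16. Of the 29 oxidative phosphorylation subunits replicate 3 was above the sham range in 21, replicate 2 below it in 19, and replicate 1 above it in 11 and below it in 10. Gluconeogenesis genes had medians of -0.67, -0.57 and 0.25 and no called member, and glycolysis genes a median of 0.24 with none called. Of the 19 glycolysis genes 11 were above without overlap.

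Transport and detoxification genes held further falls. Of 27 cytochrome P450 and UDP-glucuronosyltransferase genes 6 were lower and 1 higher, with medians of -0.79, -0.74 and -0.15 in the 3 kidneys. Cyp7b1, an oxysterol hydroxylase, stood at 126, 153 and 136 FPKM in the sham kidneys and 30.7, 10.04 and 40.6 FPKM after 16 min (log2 fold change -2.51 ± 0.47 SE, limma adjusted p = 0.0011). Cyp2d12 and Cyp2d9, of a drug-metabolizing subfamily whose members are near copies, had log2 fold changes of -2.06 and -1.84. Cyp24a1, which inactivates vitamin D, went the other way, from 29.2, 14.9 and 13.2 to 54.9, 94.2 and 83.9 FPKM (log2 fold change 1.93 ± 0.40 SE, limma adjusted p = 0.0023). Without 16 min replicate 3 the number lower was 10. Of 20 organic ion transporters 2 were lower. Slc22a7 was at 107, 97.8 and 85.4 FPKM in the sham and 52.4, 21.3 and 32.6 FPKM in the clamped kidneys (log2 fold change -1.53 ± 0.33 SE, limma adjusted p = 0.0031), and Slc22a19 was at a log2 fold change of -1.11, with a limma adjusted p of 0.062 without 16 min replicate 2. The urate transporter Slc22a12 and the organic anion transporter Slc22a6 were not called, at log2 fold changes of -0.58 and 0.18. Of 26 solute uptake genes Slc6a19, the neutral amino acid transporter, was lower, at 71.7, 83.8 and 61.5 FPKM in the sham and 23.2, 39.3 and 49.9 FPKM in the clamped kidneys (log2 fold change -1.04 ± 0.22 SE, limma adjusted p = 0.0026), though at -0.99 without normalization or on TPM, -0.93 without sham replicate 2 and -0.72 without 16 min replicate 1.

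Several of the most even falls lay outside the main lists. Pigr, the receptor that carries immunoglobulin A across epithelia, was at 132, 116 and 108 FPKM in the sham kidneys and 16.6, 16.2 and 23.5 FPKM after 16 min (log2 fold change -2.62 ± 0.20 SE, limma adjusted p = 1.8e-07). Ddc, which makes dopamine in the proximal tubule, was at 60.3, 63.2 and 64.3 FPKM in the sham and 23.4, 22.6 and 26.4 FPKM in the clamped kidneys (log2 fold change -1.41 ± 0.12 SE, limma adjusted p = 4.7e-07). In both, the clamped kidneys lay close together, replicate 3 with them. Ptpru, a receptor tyrosine phosphatase, was at 4.1, 4.18 and 3.93 FPKM in the sham and 1.49, 1.25 and 1.63 FPKM in the clamped kidneys (log2 fold change -1.17 ± 0.19 SE, limma adjusted p = 3.4e-04). Aldh1a7, an aldehyde dehydrogenase, was as even in its rise, from 9.47, 8.33 and 8.87 to 25.6, 26.9 and 22.01 FPKM (log2 fold change 1.29 ± 0.21 SE, limma adjusted p = 4.4e-04), and so was Nkain1, which interacts with the sodium pump, from 4.95, 4.59 and 5.02 to 14.9, 15.4 and 16.3 FPKM (log2 fold change 1.38 ± 0.18 SE, limma adjusted p = 4.6e-05). These 5 are named because they were called also in the fit of the 6 kidneys alone, a choice made after their values were seen. The remaining gene of that fit outside the MHC, the predicted gene Gm40364, was listed at 0 in all sham kidneys, at 1.62, 1.35 and 1.23 FPKM in the clamped kidneys and at 1.09, 0 and 0.02 FPKM at 18 min. Igfbp1, a secreted binder of insulin-like growth factors, was lower, at 14.8, 15.3 and 2.63 FPKM in the sham and 1.23, 2 and 1.35 FPKM in the clamped kidneys (log2 fold change -2.1 ± 0.42 SE, limma adjusted p = 0.0019), with sham replicate 3 closest to the clamped kidneys. Sox9, a transcription factor of repairing tubules, was higher, at 0.25, 0.22 and 0.16 FPKM in the sham and 1.25, 4.63 and 0.43 FPKM in the clamped kidneys (log2 fold change 1.07 ± 0.33 SE, limma adjusted p = 0.028), most of all in replicate 2, and it was not called without that kidney (limma adjusted p = 0.21) or without any single sham kidney (0.057 to 0.071).

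Clock genes changed in both directions. Of 19 members 4 were higher (2 without sham replicate 1) and 3 lower. Arntl, which encodes the activator BMAL1, was at 8.38, 5.41 and 5.78 FPKM in the sham kidneys and 0.76, 0.65 and 2.29 FPKM after 16 min (log2 fold change -1.93 ± 0.21 SE, limma adjusted p = 8.3e-06). Per2, a repressor of that activator, was at 2.03, 3.32 and 4.99 FPKM in the sham and 14.5, 9.34 and 15.3 FPKM in the clamped kidneys (log2 fold change 1.57 ± 0.19 SE, limma adjusted p = 2.7e-05). Both groups were apart for each gene, with replicate 3 again nearest the sham kidneys for Arntl but not for Per2. Dbp, an output gene, was higher, at a log2 fold change of 1.27, and Nr1d1, which represses Arntl, was lower, at a log2 fold change of -1.24. Tef and Nr1d2 were uncalled, at log2 fold changes of 0.13 and 0.14. The labels give no clock time of kidney collection, so a difference in that time and the clamping cannot be told apart.

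**Figure D5:**
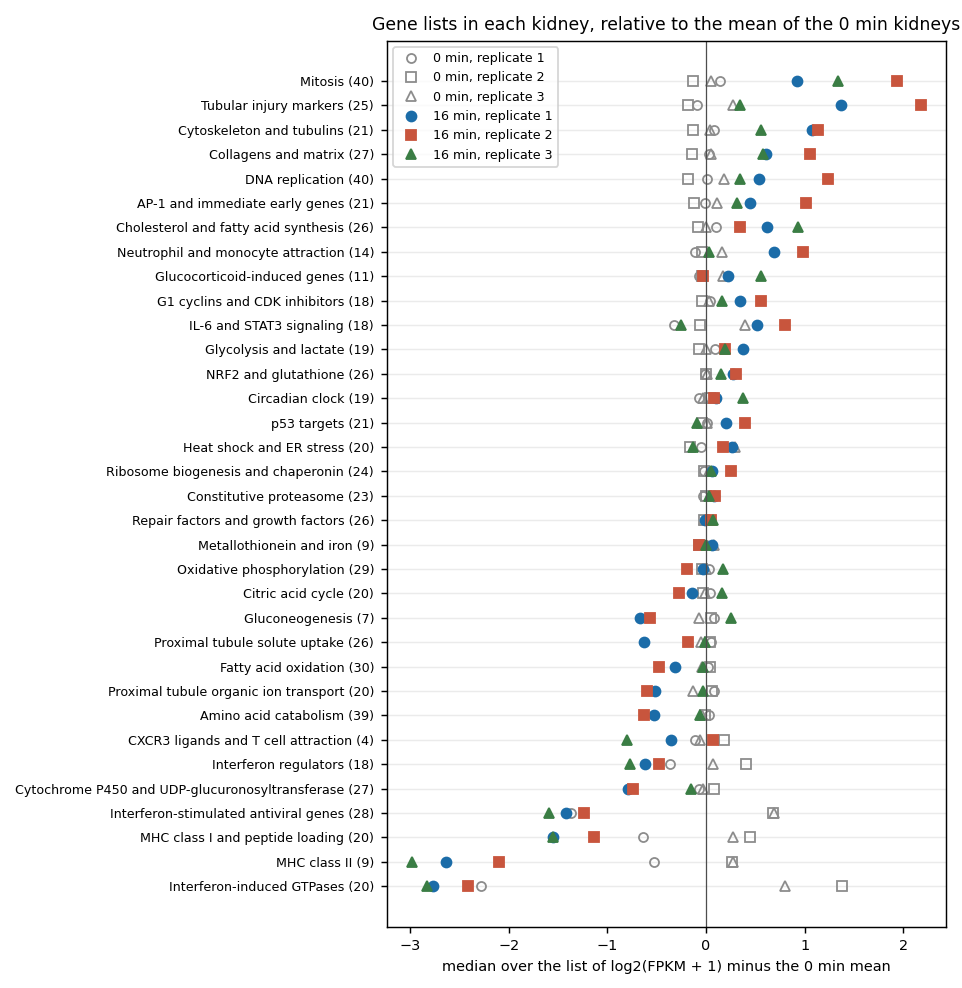
Each row is a gene list with its number of tested genes, and each point is the median over the list, in 1 kidney, of log2(FPKM + 1) minus the mean of the sham kidneys (x axis). Filled symbols are the 16 min kidneys and open symbols the sham kidneys. The filled symbols run from 0.34 to 2.18 for injury markers, and for MHC class II all of them lie below all open symbols. Sham replicate 1 lies beside the 16 min kidneys for interferon-induced GTPases and for interferon-stimulated antiviral genes.

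Markers of cell types showed few called genes. Proximal tubule markers summed to 49660 to 52620 FPKM in the sham kidneys and 21490 to 33340 FPKM after 16 min, most of it Kap, which identifies the tissue as kidney in every library. None of 6 proximal tubule, 6 loop and distal tubule, 6 collecting duct, 7 podocyte or 8 endothelial markers was called. Of 12 macrophage and monocyte markers Cd68, a lysosomal protein of phagocytes, and Lyz2, a lysozyme, were higher. Cd68 was at 3.04, 3.61 and 3.48 FPKM in the sham and 19.5, 30.3 and 8.81 FPKM in the clamped kidneys (log2 fold change 1.96 ± 0.26 SE, limma adjusted p = 8.4e-05), whereas the complement genes C1qa and C1qb were at log2 fold changes of -0.15 and -0.14 and not called. The summed macrophage markers were 84.3 to 95.9 FPKM in the sham kidneys and 151.3, 158.2 and 86.5 FPKM in replicates 1 to 3 of the clamped ones, so replicate 3 was within the sham range. The median log2 fold change over the 12 markers was -0.06, with medians of -0.06, 0.15 and -0.2 in clamped replicates 1 to 3. No neutrophil marker of 10 was called. Their sums overlapped, at 5.59, 10.5 and 12.1 FPKM against 6.92, 13.1 and 5.2 FPKM. Of the 12 T and NK cell markers tested none was called, with sums of 3.13 to 7.96 FPKM in the sham and 2.35 to 3.42 FPKM in the clamped kidneys. B cell, erythrocyte, adrenal and adipose, and pancreas and spleen markers held no called gene either. No tested marker of any list was at 0 in all 6 kidneys. The part of these cells in the chemokine and MHC results was not tested.

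Against the next clamping time no gene was called. In limma, 18 against 16 min gave 0 DEGs of 18188 (0%), though 977 genes were under 0.05 before adjustment, and the FPKM of the groups did not overlap in 1363 genes (7.49%). This does not show that the times act alike, given the spread at 16 min. Havcr1 was at 584, 389 and 208 FPKM in the 3 kidneys clamped for 18 min, and Egf at 60.3, 88.7 and 84.01 FPKM. Both genes were nearer to replicates 1 and 2 of 16 min than to replicate 3. Lcn2, at 229, 155 and 203 FPKM, lay above replicate 3 and below replicates 1 and 2. For Cd74 the 18 min values were 81.6, 69.6 and 82.6 FPKM and for Mki67 8.32, 12.2 and 6.88 FPKM, within or near the range of all 3 kidneys at 16 min. Comparisons with sham share the same 3 sham kidneys. List medians against sham at 16, 18 and 30 min were 1.18, 1.33 and 3.0 for injury markers and 1.4, 1.82 and 0.4 for mitosis genes. For MHC class II they were -2.59, -2.19 and -2.88, for interferon-induced GTPases -2.73, -2.42 and -3.22, and for amino acid catabolism -0.43, -0.42 and -1.4. The MHC class II and GTPase medians at 16 min were near those at 30 min, while injury and amino acid catabolism medians were smaller at 16 min.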

How the data were processed

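Messenger RNA of 27 left kidneys was sequenced on a DNBSEQ instrument, 3 C57BL/6 mice at each of 9 clamping times. The authors deposited FPKM for each kidney under gene symbols. The submitters' processing notes name Bowtie2, RSEM and DESeq2, and the build GRCm38.p6, without versions or roles. The table holds 19392 genes, 225 of them at 0 throughout. After adding a pseudocount of 1 FPKM, the log2 values of all 27 kidneys were quantile normalized and analysed with limma 3.58.1 (R 4.3.3), with 1 mean per clamping time, for 18188 genes detected in 3 or more kidneys. Residual and prior degrees of freedom were 18 and 1.76. The thresholds for DEGs follow the study's methods: a change over 1 (log2) and an adjusted p-value (Benjamini-Hochberg) below 0.05. FPKM keeps no read counts, so no count model was used and no interval from depth is given. The scripts were tested on simulated data.

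Gene lists (830 of 840 listed genes were in the table), markers and the comparison itself were chosen with earlier results of these data known. Genes named in the text are the 15 largest non-overlapping DEGs in each direction, up to 4 called and 2 abundant uncalled members of each list, the 20 genes of widest range at 16 min, genes that the study's text names, and those said to be named after their values were seen. Some of these are not reported here. The alternatives tried were another pseudocount, no normalization, TPM, other filters, other variance models, a replicate block and leaving out each kidney in turn. Promoter windows are RefSeq's for GRCm38.p6. Plots used matplotlib 3.10.9 (Python 3.11.15).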

Additional observations from a re-analysis of the deposited data

How the results depend on the processing

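The 410 DEGs (232 higher, 178 lower) became 795 (474 and 321) with a pseudocount of 0.1 FPKM, 8 (3 and 5) in a fit of the 6 kidneys alone, and 574 on TPM, where 404 were higher. Leaving out 1 kidney at a time gave 287 to 622 DEGs, 132 to 371 higher and 135 to 251 lower: 287 without 16 min replicate 2, 622 without 16 min replicate 3 and 310 without sham replicate 2. Without normalization there were 434 (64.5% higher), and other filters and variance models gave 363 to 413. Genes more than 1 apart between 16 min replicates 1 and 2, 1 and 3, and 2 and 3 numbered 912, 1157 and 1656 with the smaller pseudocount, and for the first pair 316 on TPM. The cause of these changes was not tested. The comparison of 18 with 16 min gave 0 DEGs in every alternative run. Of 76 called genes named in the text 55 kept their call with each kidney left out in turn, 69 lost it in the fit of the 6 kidneys alone, and 6 (Bcat1, Gdf15, Hmox1, Ifit1, Serpina10 and Sox9) lost it with 1 variance weight per group. Of the genes named, the log2 fold change of Gpx3 was -0.33 without normalization and -0.32 on TPM, and ran from 0 (without 16 min replicate 2) to 0.22 with 1 kidney left out. That of Fgg ran from -0.75 (without sham replicate 1) to 0.79 (without 16 min replicate 3).

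Replicate numbers did not pair the kidneys: deviations of same-numbered sham and 16 min kidneys correlated at -0.01, -0.02 and -0.3, and 0 of 3 clamped kidneys correlated best with its own number. A fit with the replicate block gave 410 DEGs, 408 of them shared with the fit without it. With 3 kidneys a group, an exact two-sided permutation test of a single value cannot go below p = 0.1, and calls depend on a spread shared across clamping times that was wider at 16 min. FPKM gives no depth, so the counting error of weakly expressed genes could not be estimated here.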

Other observations

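Further lists were described at 16 min. Among 9 metallothionein and iron genes Mt1 was higher, at 245, 163 and 239 FPKM in the sham kidneys and 747, 715 and 253 FPKM after 16 min (log2 fold change 1.29 ± 0.32 SE, limma adjusted p = 0.0086), a call lost without sham replicate 2 or 16 min replicate 1 or 2 (0.055, 0.060 and 0.063). Mt2, the other zinc-binding metallothionein of the kidney, was at 69.5, 54.04 and 107 FPKM in the sham and 297, 425 and 60.9 FPKM in the clamped kidneys and was not called (limma adjusted p = 0.056). In both, replicates 1 and 2 were far above the sham kidneys and replicate 3 was close to them. Of 24 ribosome biogenesis and chaperonin genes none was called, yet replicate 2 was the highest clamped kidney in 22 and was above the sham range in 22, against 18 and 11 in replicates 1 and 3. Of 11 glucocorticoid-induced genes Mt1 alone was higher, and the kidney medians were 0.22, -0.03 and 0.56. Replicate 3 was the highest of the clamped kidneys in 8 of these 11 genes.

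Further genes named in the study's text are given here because they were not called at 16 min. Idh2, the mitochondrial isocitrate dehydrogenase, was at 281, 253 and 291 FPKM in the sham kidneys and 170.3, 157 and 265 FPKM after 16 min, with replicate 3 alone in the sham range. Fos was above the sham range in all 3 clamped kidneys, at 0.61, 0.38 and 0.73 against 2.22, 4.72 and 2.66 FPKM, and was not called (limma adjusted p = 0.059). Gnmt, which methylates glycine, was at 27.4, 22.4 and 27.9 FPKM in the sham and 15.6, 10.9 and 23.1 FPKM in the clamped kidneys, again with replicate 3 alone in the sham range.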
